A study of Mus musculus with 13 samples.

Results

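Angiopoietins and vascular endothelial growth factors are 2 ligand families that act on receptor tyrosine kinases of blood and lymph vessels. The 10 genes described here are the angiopoietins Angpt1 and Angpt2, the receptors Tek (Tie2) and Tie1, the growth factors Vegfa, Vegfc and Pgf, and the receptors Flt1 (VEGFR1), Kdr (VEGFR2) and Flt4 (VEGFR3). They were chosen by symbol, through the array's gene annotation, and were 10 of 19505 genes with a symbol. Each was measured by 1 feature of the array. Expression had been measured with Clariom S mouse arrays in total RNA pooled from 4T1 tumours, which are tumours of a BALB/c mammary carcinoma line. The cells had been injected into 1 mammary fat pad per mouse, the hosts being WT BALB/c or Nlrx1-/- BALB/c, and NLRX1 is a NOD-like receptor of mitochondria. There were 3 cell lines: untransduced parental 4T1, 4T1OE with overexpression of NLRX1, and the overexpression control line 4T1OE-CTL. The Nlrx1 deletion was carried by the host and not, per the labels, by the injected cells. Each of the 6 groups of host and line held 2 arrays, 12 in all. Mouse age, the number of tumours in a pool and whether the transduced lines were clones are not given in the labels, so p-values measure the spread between pools only, and a line effect rests on 1 line of each kind.

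In vessels, Angpt1 activates Tie2 on endothelial cells and is known for stabilising the vessel wall, while Angpt2, which endothelial cells release, can block or activate the same receptor depending on the setting. Tie1 binds neither ligand strongly and modifies signalling by Tie2. VEGF-A drives the sprouting and leakiness of vessels through VEGFR2. VEGFR1 binds VEGF-A and placental growth factor, signals weakly in endothelial cells, acts there partly as a trap, and is also present on monocytes and macrophages. VEGF-C acts on VEGFR3 of lymphatic endothelium.

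The values were log2 expression values as deposited. The array of Nlrx1-/- parental replicate 1 carries the array service's advice to exclude it in its own label, while the series' design text gives that advice by a code which no label repeats. It was left out of all fits, so 11 arrays were fitted and the Nlrx1-/- parental group had 1. The median of an array was 5.89 to 6.25, and the standard deviation (SD) over its features 2.53 to 3.12. The SD was under 3 on 5 arrays, which included 3 of the 4 4T1OE-CTL arrays and none of the 4T1OE arrays. The Nlrx1 values were 9.31 to 10.67 on the 4T1OE arrays and 5.99 to 7.13 on the other 8. B cell and lymph node genes stood high on 3 arrays, those of replicate 1 of each Nlrx1-/- group, where the median over the list of each gene's deviation from its median over the fitted arrays was 2.15 to 4.35 against at most 0.378 elsewhere. The median of the 5222 negative control features was 5.24 to 5.96 on the 12 arrays. Endothelial cells were present by their defining markers, with Pecam1 at 8.33 to 10.45 and Cdh5 at 7.35 to 11.99, while the lymphatic marker Prox1 stayed at 3.85 to 4.75 and so under the negative controls on every array. In bulk tumour RNA, fewer cells of a type and less RNA per cell cannot be told apart.

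In NLRX1-overexpressing tumours compared with their transduced controls, over both hosts, Angpt1 and Flt1 were higher. Angpt1 rose 7.24-fold and Flt1 3.38-fold. Angpt2 and Kdr had higher means but did not pass the test after adjustment, and Vegfa and Vegfc differed little in their means. The test was limma with Benjamini-Hochberg adjustment over 22206 features and an adjusted p threshold of 0.05. Of the 10 genes, 2 were higher and 0 lower, and of all features 4.73% were called, 3.69% as higher. Both calls depended on the choice of arrays, as given beside each.

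Angpt1, the activating ligand of Tie2, read 10.38 on both 4T1OE arrays from WT hosts and 10.72 and 9.73 on those from Nlrx1-/- hosts. On the 4T1OE-CTL arrays it read 7.21 and 8.23 in WT hosts and 7.39 and 6.96 in Nlrx1-/- hosts. Every 4T1OE array was above every 4T1OE-CTL array, as held in the same direction for 9.39% of all features. The means were 10.30 ± 0.414 (SD, n = 4) and 7.45 ± 0.551 (SD, n = 4), a difference of 2.86 on the log2 scale (95% confidence interval 1.35 to 4.37, limma adjusted p = 0.0404). The parental arrays spread more widely than either transduced line. They read 5.94 and 10.11 in WT hosts and 9.11 on the fitted array from an Nlrx1-/- host, with 6.47 on the array left out. With all 12 arrays in the fit the difference remained 2.86 at an adjusted p of 0.135. The call was lost without any 1 of the 4 4T1OE arrays, without WT 4T1OE-CTL replicate 1 and without either Nlrx1-/- 4T1OE-CTL array, with differences of 2.67 to 3.08 and limma adjusted p of 0.0732 to 0.128.

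Angpt2, the context-dependent ligand of Tie2, read 9.69 and 9.61 on the 4T1OE arrays of WT hosts and 9.20 and 8.54 on those of Nlrx1-/- hosts. The 4T1OE-CTL arrays read 7.40 and 8.12 in WT hosts and 7.34 and 7.71 in Nlrx1-/- hosts. These values did not overlap either, as held in that direction for 9.39% of all features. The means were 9.26 ± 0.524 and 7.64 ± 0.357 (SD, n = 4 each). The difference of 1.62 (95% confidence interval 0.41 to 2.84) missed the threshold, with a limma adjusted p of 0.110. The parental arrays read 7.43 and 7.88 in WT hosts and 10.63 on the fitted Nlrx1-/- array, the highest of all 12, with 6.91 on the array left out. Without that highest array, Nlrx1-/- parental replicate 2, the difference of 1.62 reached a limma adjusted p of 0.00992. Over all arrays left out singly the difference was 1.39 to 1.97, with limma adjusted p up to 0.242.

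**Figure D1:**
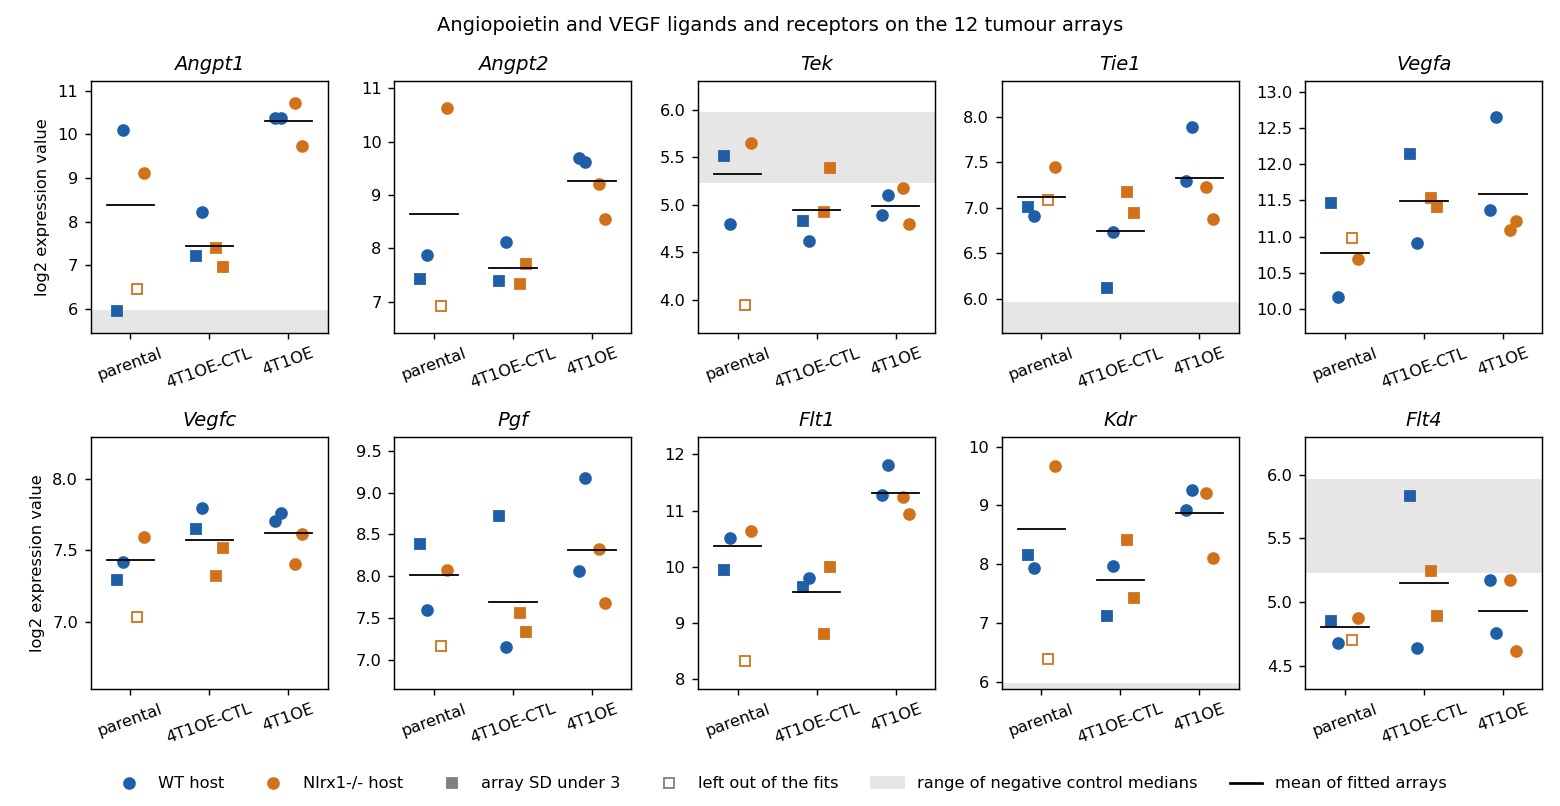
Log2 expression value (vertical axis, own range for each gene) of the 10 genes on the 12 tumour arrays by cell line, coloured by host; squares are arrays with an SD under 3, the open symbol is the array left out, black bars are means of the fitted arrays, and the grey band spans the medians of the negative controls. Angpt1, Angpt2 and Flt1 of the 4T1OE arrays lie above all 4T1OE-CTL arrays, and Tek and Flt4 lie at or under the negative controls.

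Whether the 2 ligands differed between the lines by unequal amounts was tested within arrays. The within-array difference Angpt2 minus Angpt1 was -1.04 ± 0.386 (SD, n = 4; -1.52 to -0.69) on 4T1OE arrays and 0.19 ± 0.394 (SD, n = 4; -0.12 to 0.75) on 4T1OE-CTL arrays. The change was -1.23, with an exact two-sided permutation p of 0.0286, the smallest that 70 splits of 4 against 4 arrays can give. With the array SD as a covariate, the fitted differences between the lines were close to each other, 0.90 for Angpt1 and 0.80 for Angpt2 (limma adjusted p = 0.830 and 0.882). Only the change in this difference is read here, since the levels of 2 features cannot be set against each other. The 3 fitted parental arrays covered the whole span, at 1.49 and -2.23 in WT hosts and 1.52 in the Nlrx1-/- host. Without the 2 arrays of transduced lines that were high in lymph node genes, Nlrx1-/- replicate 1 of each, the change was -1.16, and the exact permutation p of 0.1 is the smallest that 3 against 3 arrays allow.

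**Figure D2:**
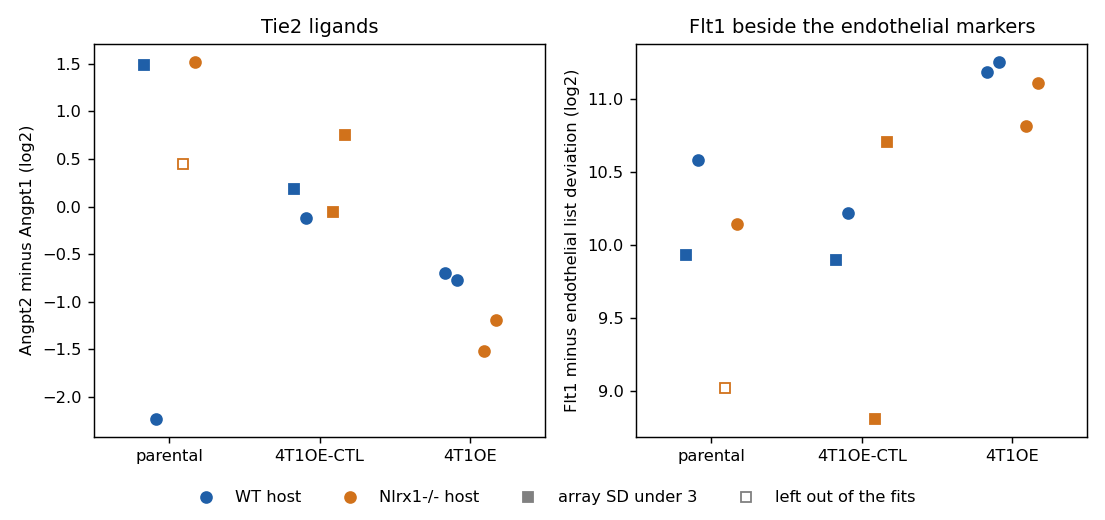
Left, the within-array difference Angpt2 minus Angpt1 (log2) by cell line; right, Flt1 minus the median deviation of 19 endothelial markers on the same array (log2). Symbols are single arrays, coloured by host, with squares for arrays of SD under 3 and an open symbol for the array left out; on the left the 4T1OE arrays lie at -1.52 to -0.69, under all 4T1OE-CTL arrays.

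Tek, which encodes the Tie2 receptor that both ligands bind, was above the median of the negative controls on 1 of 12 arrays, Nlrx1-/- parental replicate 2, at 5.65. Its values ran from 3.95 to 5.65, and no size of change is given for it. Tie1, the partner receptor of Tie2, was measured above the negative controls. It read 7.30 and 7.89 on the WT 4T1OE arrays and 7.23 and 6.88 on the Nlrx1-/- 4T1OE arrays, against 6.13 and 6.74 on the WT and 7.17 and 6.94 on the Nlrx1-/- 4T1OE-CTL arrays. The lines overlapped. The means of 7.32 and 6.74 differed by 0.58 (95% confidence interval -0.02 to 1.18, limma adjusted p = 0.217). The parental arrays read 7.0 and 6.91 in WT hosts and 7.45 on the fitted Nlrx1-/- array.

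Among the VEGF receptors, Flt1 had the smallest adjusted p of all 10 genes. It read 11.27 and 11.82 on WT and 11.24 and 10.94 on Nlrx1-/- 4T1OE arrays. The 4T1OE-CTL arrays read 9.64 and 9.81 in WT and 8.81 and 9.99 in Nlrx1-/- hosts. All 4T1OE values were above all 4T1OE-CTL values, as held for 9.39% of all features. The means were 11.32 ± 0.365 and 9.56 ± 0.523 (SD, n = 4 each). The difference was 1.76 (95% confidence interval 1.13 to 2.38, limma adjusted p = 0.0134). The parental arrays read 9.95 and 10.51 in WT hosts and 10.64 on the fitted Nlrx1-/- array, which places their mean of 10.36 ± 0.369 (SD, n = 3) between the transduced lines. With all 12 arrays the limma adjusted p for Flt1 was 0.119 at the same difference. Without WT 4T1OE replicate 2 the difference was 1.60 (adjusted p = 0.0568), and without Nlrx1-/- 4T1OE replicate 1 it was 1.75 (adjusted p = 0.0544).

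Kdr, the main signalling receptor for VEGF-A, read 8.93 and 9.27 on WT and 9.21 and 8.11 on Nlrx1-/- 4T1OE arrays. The 4T1OE-CTL arrays read 7.11 and 7.97 in WT hosts and 8.42 and 7.42 in Nlrx1-/- hosts. One Nlrx1-/- 4T1OE array thus lay under the highest 4T1OE-CTL array. The means of 8.88 ± 0.533 and 7.73 ± 0.579 (SD, n = 4 each) differed by 1.15 (95% confidence interval 0.28 to 2.02), which did not pass (limma adjusted p = 0.114). The parental arrays read 8.16 and 7.94 in WT hosts and 9.67 on the fitted Nlrx1-/- array. Flt4, the VEGF-C receptor of lymphatic endothelium, was above the negative controls on 1 of 12 arrays, WT 4T1OE-CTL replicate 1, at 5.83, and no size of change is given for it.

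The promoter sequences of Flt1, Kdr and Tie1 are shown because these 3 receptors were measurable and differ in how far they moved between the lines. Each is the 250 bases before the gene start in RefSeq (GRCm38.p6), written 5′ to 3′ on the strand of the gene, which is the minus strand for all 3. Flt1 is at chr5:147726012-147726261, Kdr at chr5:75978456-75978705 and Tie1 at chr4:118489850-118490099. Capitals mark matches to 5 motifs searched on both strands: AGGAAG, a core bound by ETS factors, TGACGTCA, the cyclic AMP response element, TATAAA, the TATA box, and ACGTG and GCGTG, cores of hypoxia response elements.
Flt1: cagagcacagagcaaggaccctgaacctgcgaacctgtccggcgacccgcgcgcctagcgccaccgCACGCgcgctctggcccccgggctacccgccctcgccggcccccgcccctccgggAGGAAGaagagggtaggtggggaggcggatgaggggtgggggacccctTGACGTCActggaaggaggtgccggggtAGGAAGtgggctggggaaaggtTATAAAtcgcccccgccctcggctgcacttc
Kdr: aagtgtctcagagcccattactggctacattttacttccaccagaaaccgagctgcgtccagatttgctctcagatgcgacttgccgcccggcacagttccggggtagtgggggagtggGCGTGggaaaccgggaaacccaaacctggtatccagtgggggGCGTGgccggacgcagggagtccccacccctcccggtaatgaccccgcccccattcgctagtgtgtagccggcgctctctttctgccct
Tie1: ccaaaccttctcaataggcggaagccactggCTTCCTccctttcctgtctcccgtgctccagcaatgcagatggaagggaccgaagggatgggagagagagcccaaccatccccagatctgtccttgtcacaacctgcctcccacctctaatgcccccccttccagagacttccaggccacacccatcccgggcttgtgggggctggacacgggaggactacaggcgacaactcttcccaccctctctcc
Flt1 held AGGAAG at 129 and 53 bases before the start, TGACGTCA at 81, TATAAA at 31 and GCGTG on the opposite strand at 184. Kdr held GCGTG at 131 and 89 bases before the start, and Tie1 held AGGAAG on the opposite strand at 219. Of 32851 promoters of the same length, 29.5% held AGGAAG, 28.2% GCGTG, 16.6% ACGTG, 12.4% TATAAA and 1.55% TGACGTCA. The GC content was 70.4% for Flt1, 61.6% for Kdr and 60.4% for Tie1, beside a median of 52.4% over all. Of the 10 genes, 8 matched an entry of this table. A match is a run of letters and not a measured binding site.

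The VEGF ligands showed no called difference. Vegfa, the main growth factor for sprouting vessels, read 11.37 and 12.65 on WT and 11.09 and 11.22 on Nlrx1-/- 4T1OE arrays, and 12.14 and 10.91 on WT and 11.53 and 11.41 on Nlrx1-/- 4T1OE-CTL arrays. The lines overlapped and the difference was 0.08 (95% confidence interval -0.74 to 0.91, limma adjusted p = 0.911). That interval holds changes of either sign, and with the array SD as a covariate the difference was 0.885 (limma adjusted p = 0.692). Vegfc, the lymphatic growth factor, stayed within 7.03 to 7.80 on all 12 arrays and differed by 0.05 (95% confidence interval -0.33 to 0.43, limma adjusted p = 0.887). Pgf, placental growth factor, read 8.07 and 9.17 on WT and 8.32 and 7.68 on Nlrx1-/- 4T1OE arrays, against 8.72 and 7.16 on WT and 7.56 and 7.34 on Nlrx1-/- 4T1OE-CTL arrays. Its difference of 0.62 (95% confidence interval -0.17 to 1.41) was within the spread of both lines (limma adjusted p = 0.314).

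**Figure D3:**
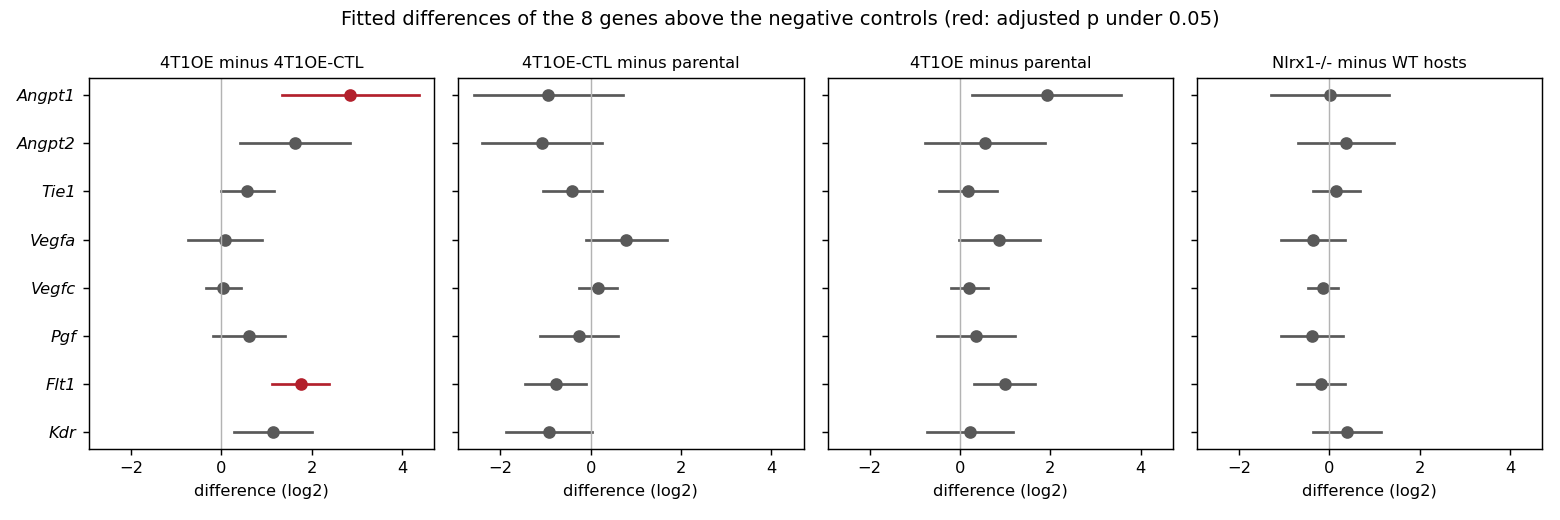
Fitted difference (log2, horizontal axis, points) with its 95% confidence interval (lines) for the 8 genes above the negative controls in 4 comparisons; Tek and Flt4 are left out. Red marks an adjusted p under 0.05, which Angpt1 (2.86) and Flt1 (1.76) have in 4T1OE minus 4T1OE-CTL and no gene has in the other 3 comparisons.

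The spread of values within an array moved with the line. It was 3.09, 3.10, 3.12 and 3.09 on the 4T1OE arrays and 2.88, 3.07, 2.91 and 2.78 on the 4T1OE-CTL arrays. With this SD as a covariate the Angpt1 difference was 0.90 (limma adjusted p = 0.830) and the Flt1 difference 1.66 (adjusted p = 0.347). Without the 5 arrays of SD under 3, which leaves 1 4T1OE-CTL array, Angpt1 differed by 2.29 (adjusted p = 0.176) and Flt1 by 1.64 (adjusted p = 0.184). After quantile normalization, which gives all arrays 1 distribution, Angpt1 differed by 2.64 (adjusted p = 0.0674) and Flt1 by 1.46 (adjusted p = 0.0286). Without the 2 arrays of transduced lines high in lymph node genes the differences were 2.70 (adjusted p = 0.162) and 1.53 (adjusted p = 0.0692).

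**Figure D4:**
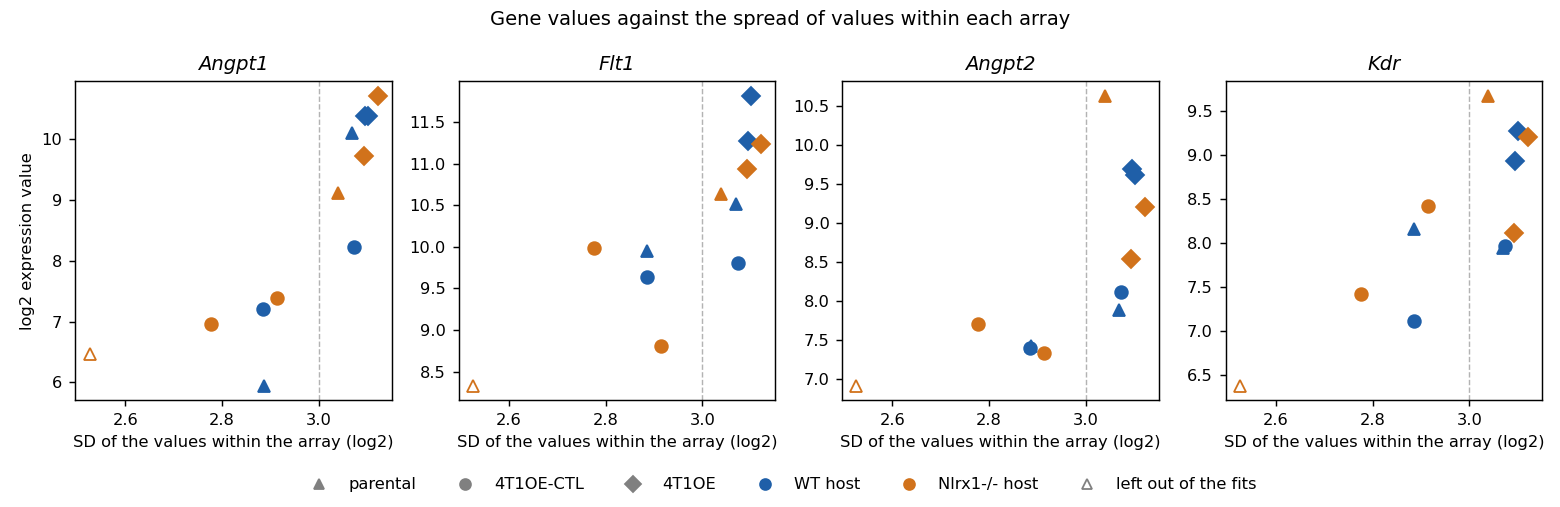
Log2 value of Angpt1, Flt1, Angpt2 and Kdr (vertical axes) against the SD of all values within the same array (horizontal axis); symbols are single arrays, shaped by cell line and coloured by host, the open symbol is the array left out, and the dashed line marks an SD of 3. The 4T1OE arrays sit to the right of that line, and 3 of the 4 4T1OE-CTL arrays sit to its left.

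The receptors were also set beside 19 measured endothelial markers, of which 15 had a positive difference between 4T1OE and 4T1OE-CTL tumours and 2 passed the test. These were Cdh5, the cadherin of endothelial junctions (2.03, limma adjusted p = 0.0257), and Plvap, a protein of endothelial fenestrae (1.48, adjusted p = 0.0354). Both calls were lost without WT 4T1OE replicate 2, without Nlrx1-/- 4T1OE replicate 1 and without some other single arrays, where the adjusted p reached 0.0904 for Cdh5 and 0.125 for Plvap. They were also lost in 5 of 9 other settings, namely all 12 arrays, quantile normalization, the array SD as a covariate, and without the arrays of SD under 3 or the 2 high in lymph node genes. The median difference was 0.71 over the endothelial list (0.45 with the array SD as a covariate), 0.60 over the 10 genes and -0.05 over all features. The summed endothelial level was 134.37 to 147.5 on 4T1OE and 124.83 to 138.77 on 4T1OE-CTL arrays, with Sox17 and Clec14a under the negative controls on every array of both lines. After subtracting each array's median endothelial deviation, the Flt1 difference was 1.19, with an exact two-sided permutation p of 0.0286 (the smallest possible) and 0.0952 after adjustment over the 5 receptors. The difference so obtained was 0.58 for Kdr (exact permutation p = 0.0857, adjusted 0.107) and 0.01 for Tie1 (exact permutation p = 1.0). Tek and Flt4 each had an exact permutation p of 0.0571 (adjusted 0.0952), and their values lie at or under the negative controls. The subtracted median covers all 19 markers, Sox17 and Clec14a among them. Before the subtraction Flt1 differed by 1.76, which is less than Cdh5 (2.03) and more than Plvap (1.48).

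By the median difference in the fit of the 11 arrays, macrophage markers moved more than endothelial ones. Of 12 measured, all 12 had a positive difference and 7 passed. These included Folr2, a folate receptor of resident macrophages (3.14, limma adjusted p = 0.00622), Cx3cr1, the fractalkine receptor (3.33, adjusted p = 0.0139), and Csf1r, the receptor for colony-stimulating factor (2.32, adjusted p = 0.0134). The others were Mrc1 (2.19), Cd163 (2.00), C1qb (1.98) and Mertk (1.10), with adjusted p of 0.0154 to 0.0494. Folr2 passed with any single array left out (limma adjusted p at most 0.0353), while Cx3cr1 and Csf1r missed the threshold, both at 0.0568 at most, without WT 4T1OE replicate 2 or Nlrx1-/- 4T1OE replicate 1, as Cd163 did (up to 0.0638). Those of Mrc1 and C1qb were lost in 7 and that of Mertk in 8 of 11 cases with 1 array left out (up to 0.0940, 0.128 and 0.139), among them each 4T1OE array. With the array SD as a covariate all 7 macrophage calls were lost, and with all 12 arrays those of all but Folr2. Without the 5 arrays of SD under 3 only Cd163 passed, and without the 2 arrays high in lymph node genes only Cx3cr1. The list's median difference was 1.60. The summed macrophage level was 134.8 to 138.85 on 4T1OE and 106.35 to 122.11 on 4T1OE-CTL arrays, without overlap, and no macrophage marker was under the negative controls on all arrays of a line. Apart from the endothelial subtraction for Flt1 above, the part of endothelial and macrophage RNA in the Angpt1 and Flt1 differences was not tested. Across the 11 fitted arrays, the 3 genes whose values were most like Angpt1, of 9925 compared by Pearson r, were Slc1a4, a neutral amino acid transporter (r = 0.977), Ttyh2, a membrane protein (r = 0.957), and Fcgr3, an IgG receptor of myeloid cells (r = 0.955). Those most like Flt1 were Septin2, a cytoskeletal GTPase (r = 0.965), Golim4, a Golgi membrane protein (r = 0.959), and Cyp39a1, an oxysterol hydroxylase (r = 0.952). These correlations are descriptions across arrays that share cell lines and hosts.

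**Figure D5:**
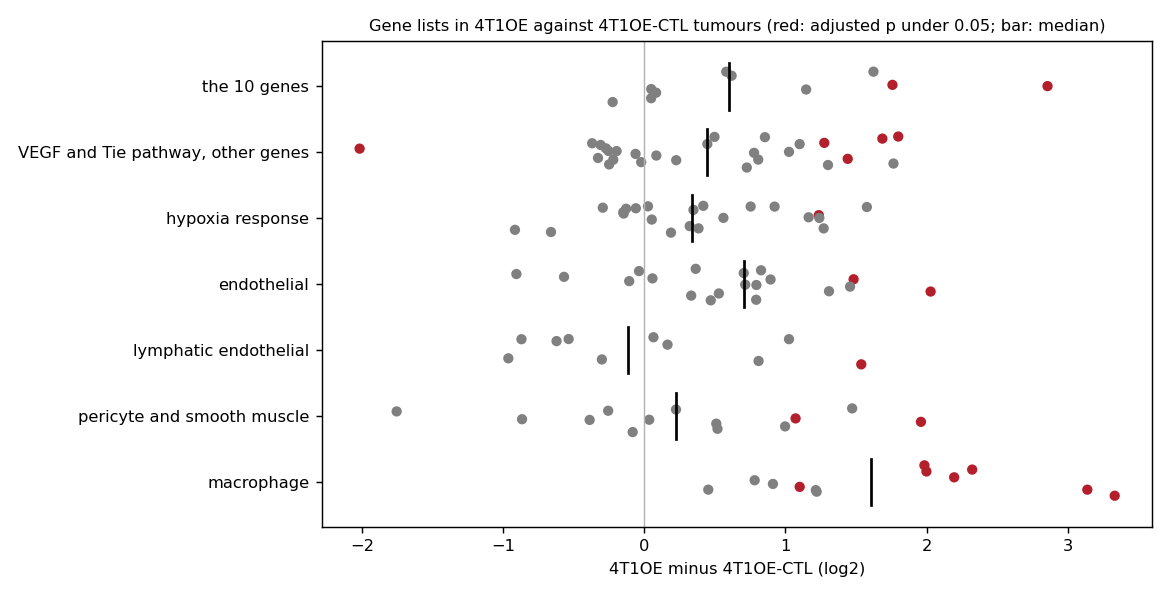
Difference between 4T1OE and 4T1OE-CTL tumours (log2, horizontal axis) of each gene in 7 lists (rows), with the list median as a black bar; points are single genes, placed at random heights within a row, and red marks an adjusted p under 0.05. The medians are 0.60 for the 10 genes, 0.71 for endothelial and 1.60 for macrophage markers, and -0.12 for lymphatic markers.

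Of 27 other genes of the VEGF and Tie pathway that were measured, 4 rose and 1 fell from 4T1OE-CTL to 4T1OE tumours, with a median difference of 0.45 (0.14 with the array SD as a covariate). Dll4, the Notch ligand of tip cells, read 8.55 against 6.75 and rose by 1.80 (limma adjusted p = 0.0157). Col18a1, the collagen that contains endostatin, rose by 1.69 (adjusted p = 0.0154), and Nrp2, a co-receptor of VEGFR3, by 1.27 (adjusted p = 0.0249). Ptprb, the phosphatase that acts on Tie2, was under the negative controls on all 4T1OE-CTL arrays and was higher by at least 0.73 (adjusted p = 0.0464). Thbs2, an inhibitor of vessel growth, read 10.30 against 12.31 and fell by 2.02 (adjusted p = 0.0341). With the array SD as a covariate, with all 12 arrays, or without the 5 arrays of SD under 3, 0 of these genes passed. The same 5 calls were also lost without WT 4T1OE replicate 2 alone and without Nlrx1-/- 4T1OE replicate 1 alone, and over all single arrays left out the limma adjusted p reached 0.0660 for Dll4, 0.0622 for Col18a1, 0.0820 for Nrp2, 0.128 for Ptprb and 0.106 for Thbs2. The 22 measured genes of the hypoxia response list, which are induced when oxygen is low as Vegfa is, had 15 positive and 7 negative differences and a median of 0.34. After quantile normalization they had 11 of each sign and a median of 0.02, and the median was 0.05 with the array SD as a covariate, 0.08 without the arrays of SD under 3 and 0.12 without the 2 arrays high in lymph node genes. One passed, Egln3, a prolyl hydroxylase that acts on hypoxia-inducible factors (1.24, limma adjusted p = 0.0342), and its call was lost without any single transduced-line array other than WT 4T1OE-CTL replicate 2 and without WT parental replicate 2, with adjusted p up to 0.111 (differences of 1.11 to 1.40 over all arrays left out singly). The Egln3 call was also lost in 5 of 9 other settings, among them all 12 arrays, quantile normalization and the array SD as a covariate.

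The 4T1OE-CTL tumours were also compared with the parental tumours. With 1 line of each kind, transduction cannot be told apart there from other differences between the lines. None of the 10 genes passed, beside 2.59% of all features. An unadjusted limma p under 0.05 was found for 15.9% of all features and for 1 of the 10 genes. That gene was Flt1, at -0.77 (95% confidence interval -1.45 to -0.09, limma adjusted p = 0.248). The differences of Kdr (-0.92), Angpt1 (-0.94) and Angpt2 (-1.07) were also negative, with limma adjusted p of 0.329, 0.608 and 0.437, and that of Vegfa was 0.79 (adjusted p = 0.388). The Angpt1 difference depended on which array was left out. Over the 11 arrays left out singly it ran from -2.16 to -0.08, with limma adjusted p of 0.00879 to 0.981. The value of -2.16 was that without WT parental replicate 1, where Angpt1 read 5.94. Of the other pathway genes Foxo1, a transcription factor that acts downstream of Tie2, fell by 2.24 (limma adjusted p = 0.0331), a call lost with 7 of the 11 arrays left out singly, among them each of the 3 parental arrays (adjusted p up to 0.253). The Foxo1 call was also lost in 3 of 9 other settings, among them all 12 arrays and the array SD as a covariate. Pfkfb3, a glycolytic regulator of the hypoxia list, was higher by 2.12 (adjusted p = 0.0166; up to 0.126 without Nlrx1-/- parental replicate 2 or WT 4T1OE-CTL replicate 1). Parental tumours also differed in their tumour cell markers, with Epcam at 14.13 in parental and 8.09 in 4T1OE-CTL tumours (limma adjusted p = 0.000619).

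Between 4T1OE and parental tumours none of the 10 genes passed either, beside 1.33% of all features. An unadjusted limma p under 0.05 was found for 13.8% of all features and for 2 of the 10 genes. These were Flt1, at 0.98 (95% confidence interval 0.31 to 1.66, limma adjusted p = 0.165), and Angpt1, at 1.92 (0.27 to 3.56, adjusted p = 0.273). The Flt1 values of the 4T1OE arrays were all above those of the fitted parental arrays, as held for 9.96% of features in that direction. Angpt2 differed by 0.55 (limma adjusted p = 0.743). Over the arrays left out singly its difference ran from 0.006 to 1.86, with limma adjusted p of 0.0443 to 0.999. The value of 1.86 was that without Nlrx1-/- parental replicate 2, which left parental arrays of WT hosts only. Of the other pathway genes Nrp2 rose by 1.85 (adjusted p = 0.0125), while Thbs1, another inhibitor of vessel growth, fell by 1.57 (adjusted p = 0.0439) and Thbs2 by 2.30 (adjusted p = 0.0493). The Nrp2 call was lost without WT 4T1OE replicate 1 only (limma adjusted p = 0.0503), and those of Thbs1 and Thbs2 each without 8 of the 11 arrays, all 4 4T1OE arrays among them (up to 0.176 and 0.154). Those of Thbs1 and Thbs2 were also lost with all 12 arrays and with the array SD as a covariate. None of the hypoxia genes passed, and those with the smallest p were Egln3 (1.39, adjusted p = 0.0543) and Pfkfb3 (1.20) among positive and Kdm3a (-0.53) and Vldlr (-0.33) among negative differences. The 3 comparisons between lines share arrays in pairs and are not independent of each other.

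Host genotype gave no called difference for any of the 10 genes. Between Nlrx1-/- and WT hosts over all lines 0% of features passed limma's adjusted threshold. An unadjusted p under 0.05 was found for 955 features (4.30%), and 0 of these were among the 10 genes. The differences ran from -0.39 for Pgf to 0.38 for Kdr. Flt1 differed by -0.19 (95% confidence interval -0.73 to 0.35), Angpt1 by 0.01 (-1.30 to 1.32) and Vegfa by -0.37 (-1.08 to 0.34), all at an adjusted p of 1.0. Within 4T1OE tumours 0% of features passed and 0.874% had an unadjusted p under 0.05. Of the 10 genes this held for 1, Angpt2 (limma difference -0.78, adjusted p = 1.0). Within 4T1OE-CTL tumours 0% passed, and 0 of the 10 genes had an unadjusted p under 0.05, beside 9.55% of all features.

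The difference between 4T1OE and 4T1OE-CTL tumours was also taken within each host. In WT hosts 0.0135% of all features were called and none of the 10 genes. An unadjusted limma p under 0.05 was found for 8.07% of all features and 5 of the 10 genes. In Nlrx1-/- hosts 1.19% were called and again none of the 10, with 3 at an unadjusted p under 0.05 beside 20.8% of all features. Flt1 differed by 1.82 in WT (limma adjusted p = 0.216) and 1.69 in Nlrx1-/- hosts (adjusted p = 0.0694), and Angpt1 by 2.66 (adjusted p = 0.563) and 3.05 (adjusted p = 0.144). Angpt2 differed by 1.90 (adjusted p = 0.145) and 1.35 (adjusted p = 0.0800). In Nlrx1-/- hosts the Angpt1 difference of 3.05 passed when either WT parental array was left out. Both omissions give the same test, since a group of 1 array adds nothing to the pooled spread. The arrays compared and the difference were unchanged, and more of all features passed there too. Tie1 differed by 1.16 in WT hosts (adjusted p = 0.365) and by 0.00 in Nlrx1-/- hosts, an interaction of -1.16 (95% confidence interval -2.16 to -0.16) with an unadjusted limma p of 0.0277 and an adjusted p of 0.999. No interaction passed, for 0% of features and 0 of the 10 genes. Tie1 was the 1 gene of the 10 with an unadjusted p under 0.05, as 3.27% of all features had.

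Among the other pathway genes none passed by host, within a host or in the interaction, and the genes of smallest p in each direction are given as values. Between Nlrx1-/- and WT hosts these were Dok2, an adaptor of Tie2 (0.76), and Vegfb, a ligand of VEGFR1 (0.24), with Thbs2 (-0.77) and the adaptor Shb (-0.34) in the other direction, all at a limma adjusted p of 1.0. Within 4T1OE-CTL tumours they were Plcg1, the phospholipase downstream of VEGFR2 (0.48), the adaptor Sh2d2a, for which no size is given because it lay at the negative controls, Ccbe1, which promotes the processing of VEGF-C (-1.82), and Thbs2 (-1.43). Within 4T1OE tumours they were Notch1 (0.50), Svep1, which lay at the negative controls, Thbs1 (-0.86) and the endothelial nitric oxide synthase Nos3, which was under the negative controls in Nlrx1-/- hosts. The difference between 4T1OE and 4T1OE-CTL tumours in WT hosts had Dll4 (2.09, limma adjusted p = 0.146) and Col18a1 (1.76) on the positive side and Thbs2 (-2.65) on the negative side, beside Notch4 at the negative controls. In Nlrx1-/- hosts it had Ccbe1 (2.02, limma adjusted p = 0.0619) and Dll4 (1.51, adjusted p = 0.0793), with Thbs2 (-1.39) and, at the negative controls, Angpt4. The interaction was 1.43 for Ccbe1 and -1.24 for Esm1, an endothelial secreted proteoglycan. No size of the interaction is given for Notch1 and Nos3, which lay under the negative controls on both arrays of at least 1 of the groups compared.

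None of the hypoxia genes passed by host either, and 18 of 22 had a negative difference between Nlrx1-/- and WT hosts, with a median of -0.27. The median was -0.08 without the 2 arrays high in lymph node genes, both from Nlrx1-/- hosts, and -0.50 with all 12 arrays. Those of smallest p were Adm, adrenomedullin (-1.04), and Slc2a1, a glucose transporter (-1.03), with Pfkfb4 (0.31) and P4ha2 (0.19) in the other direction, all at a limma adjusted p of 1.0. Within 4T1OE-CTL tumours Slc2a1 (-2.02, limma adjusted p = 0.372) and Bnip3, a mitophagy receptor (-1.54), stood beside Pfkfb4 (0.38) and Pfkfb3 (0.28). Within 4T1OE tumours Adm (-1.62) and Bhlhe40, a transcriptional repressor (-1.19), stood beside Kdm3a (0.18) and Pfkfb4 (0.13). Between 4T1OE and 4T1OE-CTL tumours the values were 1.30 for Egln3, 0.92 for Mxi1, -0.53 for Kdm3a and -0.48 for Vldlr in WT hosts. In Nlrx1-/- hosts they were 1.30 for Bnip3, 1.18 for Egln3, -1.33 for Pfkfb3 and -0.84 for Vldlr. The interaction was 1.11 for Hk2, a hexokinase, 0.93 for Kdm3a, -0.82 for Pfkfb3 and -0.55 for Bhlhe40.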

How the data were processed

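Log2 values as deposited, already normalized by the authors, were available for each array and feature. Per the submitters' processing notes they come from the Transcriptome Analysis Console, and neither normalization method nor genome build is known here. The manufacturer's control array was not analysed here. The table held 28846 features. After removal of 6640 control features, all 22206 others were tested, without scaling or filter. Of 55 genes with more than 1 feature, the feature with the highest mean was used.

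Two-sided tests used lmFit and eBayes of limma 3.58.1 (R 4.3.3) with Benjamini-Hochberg adjustment, as an additive model of host and line, or with 1 mean for each of the 6 groups for differences within a host or line and interactions. The procedure was tested on simulated data. Of the 66 pairs of arrays 0 were identical. The lone Nlrx1-/- parental array was assumed to vary like the other groups. Where all arrays of a line were under the negative control median, a bound replaced the fold change. Array number limits the precision. The 10 genes and all gene lists were chosen with earlier results of these data known.

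Named were all 10 genes, the pathway and hypoxia genes that passed or otherwise the 2 of smallest p in each direction, marker genes that passed between 4T1OE and 4T1OE-CTL, and the 3 genes most correlated with each called gene. Epcam is named outside this rule, after its values were seen. Alternatives were 12 arrays, quantile normalization, a filter on dim features, an intensity trend with robust fit, array weights, the array SD as covariate, leaving out sets of arrays or each array, and a replicate block.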

Additional observations from a re-analysis of the deposited data

How the results depend on the processing

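Between 4T1OE and 4T1OE-CTL tumours 2 of the 10 genes were called (Angpt1 and Flt1). It fell to 0 when all 12 arrays were fitted, with the array SD as a covariate, without the arrays of SD under 3 and without the 2 arrays high in lymph node genes, 1 after quantile normalization and 1 with an intensity trend and robust fit. Leaving out each array in turn gave 0 to 3 called genes there, and 0 to 1 in 4T1OE-CTL against parental, in 4T1OE against parental and in 4T1OE against 4T1OE-CTL within Nlrx1-/- hosts. The change in Angpt2 minus Angpt1 was -1.16 without the 2 arrays high in lymph node genes. With array weights the limma adjusted p was 0.0095 for Angpt1 and 0.0032 for Flt1. The Vegfa difference between these lines, called in none of these settings, changed sign (-0.23 after quantile normalization). It was 0.885 with the array SD as a covariate and 0.876 without the arrays of SD under 3. In the same 2 settings the Pgf difference was 1.11 and 1.28. The alternatives gave 1820 values, which are limma differences of single genes and the 5 receptors set against the endothelial markers. Among them 0 called values reversed, 19 lost and 5 gained the call. All 19 losses were of Angpt1 and Flt1 between 4T1OE and 4T1OE-CTL tumours, the only 2 calls that could be lost. The other 88 limma comparisons of a gene and the 5 receptor tests had no call to lose. The sign of the difference changed in 117 of the 1820 values. The cause was not tested. Without the arrays of SD under 3, contrasts within Nlrx1-/- hosts, within 4T1OE-CTL and the interaction could not be fitted.

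Same-numbered arrays were not paired by any label, and their deviations correlated at -0.31 to 0.37 over 10 pairs of groups, over 0.1 in 2. With the replicate block 2 genes were called between 4T1OE and 4T1OE-CTL (Angpt1 at 2.86, adjusted p 0.0408; Flt1 at 1.76, adjusted p 0.00964), and the block changed 0 calls among the 10 genes. Of the list genes named, Ptprb and Abcc9 in that comparison and Thbs1 and Thbs2 against parental tumours were not called with the block.

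Values under the negative controls (Tek, Flt4) show no size of change.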

Other observations

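Between 4T1OE and 4T1OE-CTL tumours, 2 of 13 pericyte and smooth muscle markers were higher and 0 lower by limma, with a median difference of 0.23. Rgs5, a regulator of G protein signalling in pericytes, rose by 1.96 (adjusted p = 0.0237), and Abcc9, a subunit of the potassium channel of mural cells, rose by 1.07 (adjusted p = 0.0438). Leaving out single arrays lost the Rgs5 call in 4 of 11 cases and the Abcc9 call in 8, among them WT 4T1OE replicate 2 and Nlrx1-/- 4T1OE replicate 1 (adjusted p up to 0.0872 and 0.135). Both were also lost with all 12 arrays, with the array SD as a covariate and after quantile normalization. Rgs5 was lower by 2.14 in 4T1OE-CTL than in parental tumours (adjusted p = 0.0240), as was Cdh5 of endothelial junctions, which fell by 2.10 (adjusted p = 0.0349), so the 4T1OE-CTL tumours had the lowest mean of both genes among the 3 lines. These calls were lost for Rgs5 in 4 and for Cdh5 in 7 of 11 cases with 1 array left out (adjusted p up to 0.105 and 0.272). Both calls against parental tumours were also lost with all 12 arrays and with array weights. Of 10 lymphatic markers only Foxc2, a transcription factor of lymphatic valves, was called (1.54, limma adjusted p = 0.0169). It was above the negative controls on 2 of the 4 4T1OE-CTL arrays and on all 4 4T1OE arrays, and its call was lost in 4 of 11 cases (adjusted p up to 0.0669), the same 2 arrays among them.

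Of 11 T and NK cell markers 10 had a negative difference between the same lines, and 2 passed by limma. Gzma and Gzmb, which encode granzymes of cytotoxic cells, fell by 1.51 (adjusted p = 0.0233) and 2.55 (adjusted p = 0.0225). Leaving out any 1 of the 4 4T1OE arrays ended both calls, and over all arrays left out singly the adjusted p reached 0.0829 for Gzma and 0.0848 for Gzmb. With all 12 arrays, with the array SD as a covariate or without the arrays of SD under 3, neither these 2 genes nor Foxc2 passed. None of 9 fibroblast, 13 epithelial and tumour, 13 B cell and lymph node, 12 skeletal muscle, 8 adipocyte or 7 neutrophil markers passed, with median differences of -0.17, 0.30, -0.40, -0.68, -0.06 and 0.24.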
